A study of Mus musculus with 8 samples.

Results

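A small set of blood cells rich in transcripts of antigen presentation was picked out of single-cell profiles of sorted monocytic cells from tumor-bearing mice. These cells were chosen by their own transcript counts as candidate blood dendritic cells, and 121 of the 18859 blood barcodes that passed the quality limits were chosen (32121 barcodes passed in the series as a whole). A barcode was chosen if it held at least 3 unique molecular identifiers (UMIs, each 1 captured mRNA) of Flt3, Cd209a and Siglech together. It also had to hold under 5% of its UMIs in 5 neutrophil genes (S100a8, S100a9, Retnlg, Csf3r and Cxcr2) and under 3 UMIs of the B cell genes Cd79a, Cd79b and Ms4a1. Finally it had to hold under 10 UMIs of the monocyte genes Ly6c2, Ccr2, F13a1 and Vcan, or at least 2 UMIs of Flt3. The levels of these 15 genes are therefore a description of the choice and not a result.

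The cells came from the blood of C57BL/6J mice of both sexes, 8 to 10 weeks old, that carried subcutaneous MC38 colon carcinomas, and had been sorted as CD45+CD11b+Ly6Chi. WT mice carried floxed Ythdf2 without Cre (Ythdf2 fl/fl), and cKO mice were Lyz Cre+;Ythdf2 fl/fl, with Cre driven from the Lyz2 locus, a driver of granulocytes, monocytes and macrophages that acts in only some dendritic cells. Tumors were left unirradiated (control) or irradiated locally with a single dose of 20 Gy (IR), and blood was taken 3 days after it. For each genotype and treatment, cells of 5 mice were pooled, marked with the hashtag antibody B0301 (WT) or B0302 (cKO), and the genotypes of a treatment were then run together in 1 library. Each of the 4 groups was thus 1 pool without replicates, no test was possible, and every interval below is a 95% interval for counting error only. Control and IR blood were also separate libraries, so treatment and library cannot be told apart, whereas WT and cKO cells shared a library.

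Dendritic cells take up antigen and present its peptides to T cells. Conventional dendritic cells depend on the cytokine receptor Flt3 and carry large amounts of major histocompatibility complex (MHC) class II molecules, which present peptides to CD4 T cells. Type 2 conventional dendritic cells express the C-type lectins Cd209a and Clec10a, type 1 cells express Xcr1 and Clec9a, and plasmacytoid dendritic cells, the strong producers of type I interferon, express Siglech. Monocytes can also gain Cd209a and class II molecules, so these transcripts do not separate the lineages by themselves.

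Class II genes share a promoter architecture in which the Y box, a CCAAT element, lies just upstream of the gene start and is bound by the factor NF-Y. Since class II genes were among the leading genes of the chosen cells, the stretch around this element is shown for 3 of them, taken from RefSeq on GRCm38.p6, with the letters GATTGG and their complement CCAATC in capitals. H2-Aa encodes the alpha chain of the I-A molecule, H2-Eb1 the beta chain of I-E, and H2-DMb1 a chain of the H2-DM exchanger that loads peptides. The stretches lie at chr17:34287827-34287912 on the minus strand, chr17:34305767-34305852 on the plus strand and chr17:34153089-34153174 on the plus strand.
H2-Aa: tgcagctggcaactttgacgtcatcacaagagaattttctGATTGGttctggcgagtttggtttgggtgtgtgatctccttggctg
H2-Eb1: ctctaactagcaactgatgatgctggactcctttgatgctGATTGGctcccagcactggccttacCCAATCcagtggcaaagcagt
H2-DMb1: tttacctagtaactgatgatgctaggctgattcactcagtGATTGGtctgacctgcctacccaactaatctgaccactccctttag
The GATTGG copy began 49, 60 and 62 bases before the RefSeq gene start in H2-Aa, H2-Eb1 and H2-DMb1. In the mm10 gene positions listed under Ensembl identifiers, H2-DMb1 starts at base 34153072, so its stretch lies inside the gene there. The stretches of H2-Aa and H2-Eb1 lie upstream in both. Searched on both strands, the letters were present in 5292 of 32851 promoters of the same length (16.1%) and in 7 of the 10 promoters listed for 9 of the 12 class II genes. A match of 6 letters is a description of the sequence and does not show that a factor was bound.

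The chosen cells were well sampled. They held a median of 11438 gene UMIs, ranging from 4429 to 23266, against 11355 in 3907 classical monocyte-like barcodes, 8870.5 in 614 nonclassical monocyte-like barcodes and 2652 in 12020 neutrophil-like barcodes. These comparison classes were set by gates on marker genes within the same libraries, and the classical class was defined by at least 10 UMIs of the 4 monocyte genes in a cell that had not been chosen. Of the 121 cells, 88 came from control and 33 from IR blood, and 116 had a genotype, namely 45 control WT, 39 control cKO, 23 IR WT and 9 IR cKO cells. With 9 cells the IR cKO group was the thinnest, at 123487 UMIs in all. The barcode of 1 control cell was also present in the control tumor library, and no barcode of a chosen cell was shared with any other library.

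Of the dendritic cell markers, Flt3, Cd209a and Siglech were genes of the rule, and Clec10a was not. The high levels of Cd209a and Flt3 therefore describe the choice. Levels are given as UMIs per 1000000 gene UMIs (CPM) after summing the cells of a class. Cd209a stood at 967 CPM (917 to 1018) against 29.7 in classical monocyte-like cells, and Flt3 at 178 CPM (157 to 201) against 7.71. Clec10a, which was not used to choose the cells, stood at 221 CPM (198 to 246) against 33.0, and had a UMI in 68.6% of the chosen and 26.7% of the classical cells. Siglech, by contrast, was almost missing, with 4 UMIs in 2 of the 121 cells, so the set was led by Cd209a and Flt3, and the plasmacytoid part of the label was not borne out.

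Of 6 narrow plasmacytoid genes, nearly all UMIs lay in a single cell, whereas other genes of that list were spread more widely. Ly6d (10 UMIs), Cox6a2 (10 UMIs), Pacsin1 (3 UMIs) and Ccr9 (2 UMIs) were found in 1 and the same IR WT cell, which also held 2 of the 4 Siglech UMIs. That cell had 20650 UMIs in all and 10 UMIs of Cd209a, so it carried transcripts of both kinds. Klk1, the sixth of these genes, had 0 UMIs in every chosen cell. Spib, a transcription factor of plasmacytoid and B cells, had 15 UMIs in 10 control WT cells and 5 UMIs in 4 control cKO cells. Of the 7 genes of the 15-gene list measured against classical cells, 6 were above 0 on the log2 scale, at a median of 0.80. Of the 7, 2 were higher past 1, beside 4.92% of all genes. In Cd209a-led cells all 5 measured were higher past that limit than in the 16 other chosen cells described below, beside 6.27% of all genes. Bst2 stood at 402 CPM against 231 in classical cells and Tcf4 at 92.9 against 82.8.

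The genes used to sort the cells were present at lower levels than in monocytes. Ptprc, which encodes CD45, stood at 876 CPM against 1265 in classical monocyte-like cells, and Itgam, which encodes CD11b, stood at 176 against 317 CPM. Itgam had a UMI in 81.0% of the chosen cells and in 93.2% of the classical ones.

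The chosen cells were split into 2 sets by the genes of the rule. Of the 121, 105 held at least 2 UMIs of Cd209a and more Cd209a than Siglech and are called Cd209a-led, with a median of 10 Cd209a UMIs and a range from 2 to 51. The other 16 held at most 1 Cd209a UMI and had been admitted through 2 to 4 UMIs of Flt3. None met the matching definition for Siglech. All 16 held at least 15 UMIs of the 4 monocyte genes, at a median of 33.5 per cell, against 9 per cell in the Cd209a-led cells. They were spread unevenly over the groups, with 12 in control cKO, 2 in control WT, 1 in IR WT, 0 in IR cKO and 1 without a genotype.

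Genes outside the rule also differed between the sums of these sets. Among 3842 genes with at least 50 UMIs, 241 (6.27%) were at least 2-fold higher and 162 (4.22%) at least 2-fold lower in the Cd209a-led cells, that is, past 1 on the log2 scale. Cd7, an immunoglobulin-family surface receptor known from lymphoid cells, stood at 353 CPM in the Cd209a-led cells and had 0 UMIs in the 16 others. Zbtb46, a transcription factor that marks conventional dendritic cells and their precursors, stood at 28.0 CPM and likewise had 0 UMIs in the others. H2-Aa stood at 4617 against 921 CPM, a log2 difference of 2.32 (2.11 to 2.55). In the opposite direction, Apoe, a lipid carrier abundant in macrophages, stood at 162 against 1071 CPM, and Mgst1, a glutathione transferase gene of classical monocytes, stood at 67.6 against 413 CPM.

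**Figure D1:**
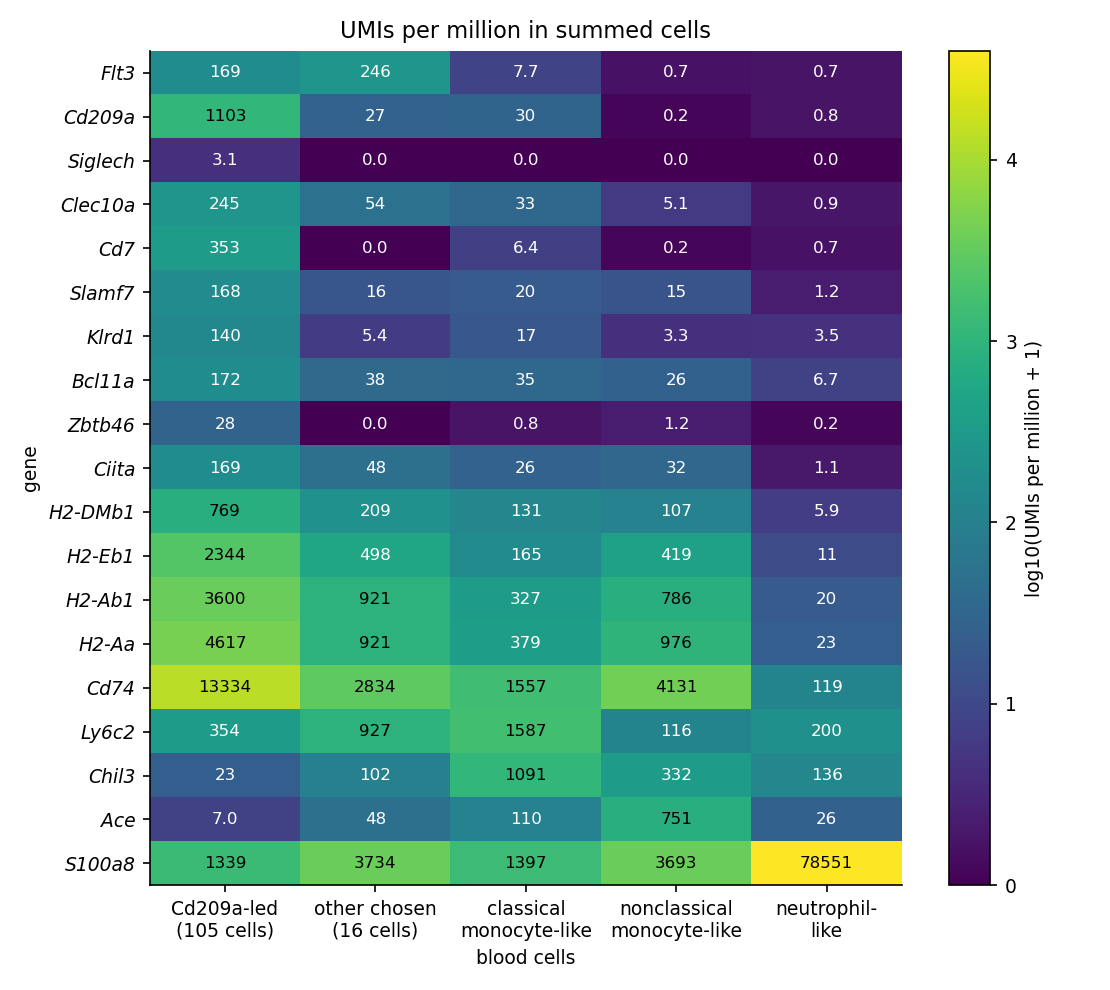
Levels of 19 genes (rows) in 5 classes of blood cells (columns), as CPM printed in each field and as a color on the scale log10(CPM + 1). The Cd209a-led column carries the highest class II levels (H2-Aa 4617) and Cd7 at 353, while the 16 other chosen cells resemble the monocyte-like columns in Cd7 (0) and Ly6c2 (927).

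Markers of other blood cells were summed over whole lists. The 8 classical monocyte genes summed to 1799 CPM in the Cd209a-led cells, to 5309 in the 16 others and to 7598 in classical monocyte-like cells. The 12 neutrophil genes summed to 3592, 9617 and 3773 CPM in the same order, with 204507 in neutrophil-like cells. The barcodes with under 100 UMIs, taken as free RNA, held S100a8 at 29381 and 24871 CPM in the control and IR libraries, and Cd209a at 61.1 and 31.2 CPM. The part of free RNA in the levels of neutrophil genes was not tested. All 6 basophil genes had 0 UMIs. T cell genes had 98 UMIs in 5 cells, of which 3 cells held 58, 25 and 12, and haemoglobin genes had 5146 of their 5171 UMIs in 1 cell. Those 4 cells held most of the UMIs of the T cell and erythroid lists.

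Across single cells, class II transcripts and monocyte transcripts varied in opposite ways, with wide overlap. Summed H2-Aa, H2-Ab1, H2-Eb1 and Cd74 ranged from 54.9 to 75884 CPM per Cd209a-led cell, at a median of 25925, and from 0 to 41438, at a median of 235.5, in the 16 others. In the 55 cells with under 10 monocyte UMIs the median was 34796 CPM and the lowest cell stood at 238. In the 66 cells with at least 10 it was 9855, and 4 cells had no class II UMI. The highest cells on either side of that limit stood at 75884 and 65563 CPM, whereas the cells without any class II UMI all lay on the monocyte-rich side.

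**Figure D2:**
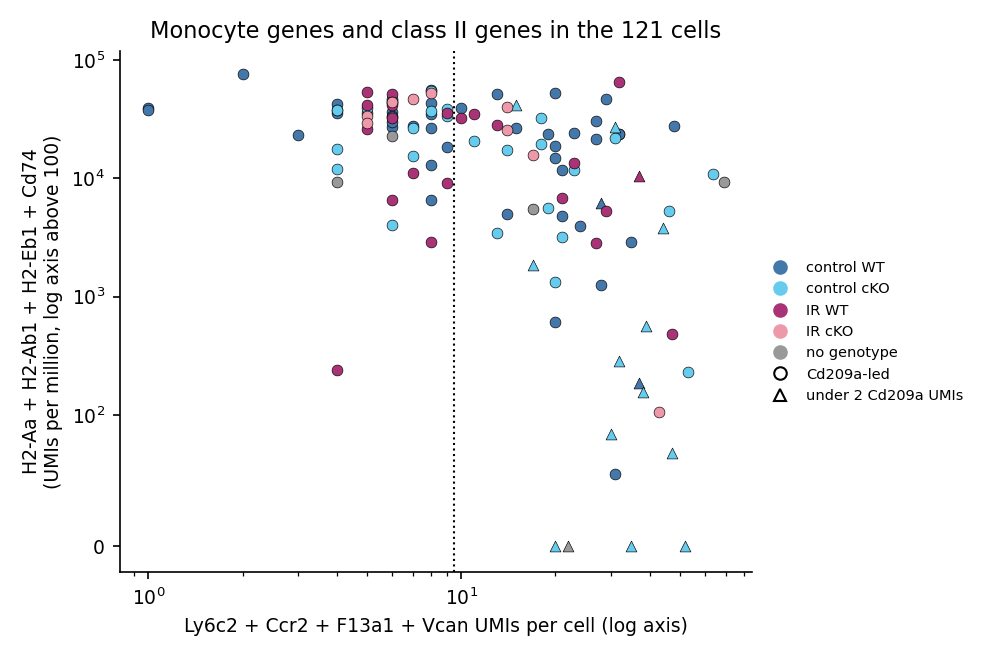
Each point is 1 of the 121 chosen cells, with UMIs of Ly6c2, Ccr2, F13a1 and Vcan on the x axis (log scale) and summed CPM of H2-Aa, H2-Ab1, H2-Eb1 and Cd74 on the y axis (log scale above 100). Colors give the group, triangles are the 16 cells under 2 Cd209a UMIs, and the dotted line stands at the limit of 10 monocyte UMIs. All triangles lie to the right of the line, and the points at 0 are triangles.

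Other genes also differed between chosen cells with few and with many monocyte UMIs. The cells were divided by UMIs of the monocyte genes of the rule. Lower levels of genes expressed along with these monocyte genes thus partly describe the division. The part of this in the values below was not tested. Of 3842 genes measured, 27 (0.703%) were higher and 79 (2.06%) lower by at least 1 on the log2 scale in the 55 cells with under 10 monocyte UMIs than in the 66 with at least 10. H2-Eb1 stood at 3230 against 1268 CPM, and Ciita, the master regulator of class II transcription, at 216 against 107 CPM. Ccnd1, which encodes cyclin D1 and was singled out after its values had been seen, stood at 199 against 51.1 CPM. Fn1 (fibronectin) stood at 144 against 653 CPM, Hp (haptoglobin) at 52.1 against 359 CPM and Mgst1 at 17.4 against 182 CPM. The levels of Zbtb46 and Irf4 differed less, as Zbtb46 stood at 25.3 and 23.8 CPM and Irf4 at 50.5 and 55.9 CPM.

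The limits of the rule cut through a continuum. The 16 cells with exactly 3 UMIs of Flt3, Cd209a and Siglech had H2-Aa at 1634 and Cd7 at 65.8 CPM, and 45 cells just outside, with 2 such UMIs, had H2-Aa at 1042 and Cd7 at 48.4 CPM. A further 119 cells were left out only because they held at least 10 monocyte UMIs and under 2 of Flt3. Their levels of Cd209a (922 CPM) and H2-Aa (2890 CPM) were close to the 716 and 2623 CPM of the 66 cells that the Flt3 clause let in, while Cd7 stood at 125 against 250 CPM. The number of cells that count as dendritic therefore depended on 1 or 2 Flt3 UMIs per cell. Among all barcodes with at least 10 monocyte UMIs (neutrophil and B cell limits passed), at least 2 Flt3 UMIs were present in 3.32% of control WT, 4.83% of control cKO, 1.51% of IR WT and 0.920% of IR cKO cells.

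The chosen cells made up a smaller share of blood barcodes in the IR library. They were 0.882% of control WT barcodes (45 of 5101, exact Clopper-Pearson interval 0.644 to 1.18%) and 0.972% of control cKO barcodes (39 of 4014, 0.692 to 1.33%). In IR blood they were 0.469% of WT (23 of 4900, 0.298 to 0.703%) and 0.229% of cKO barcodes (9 of 3936, 0.105 to 0.434%). The difference of IR minus control was -0.413 points in WT (Newcombe interval -0.748 to -0.0901) and -0.743 points in cKO (-1.11 to -0.412). Both intervals left out 0, but each compares 1 pool with 1 pool in separate libraries. The WT interval included 0 with at least 5 UMIs of Flt3, Cd209a and Siglech (-0.563 to 0.0390), without the Flt3 clause (-0.390 to 0.0895) and with no B cell UMI allowed (-0.558 to 0.0329). The cKO interval included 0 when cells were thinned to 1000 UMIs (-0.316 to 0.0377).

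Between genotypes, the intervals of the difference included 0 in both treatments. The cKO share exceeded the WT share by 0.0894 points in control blood (-0.305 to 0.507), and the difference was -0.241 points in IR blood (-0.499 to 0.0174). Among the Cd209a-led cells only, a set chosen after the data had been seen, the shares were 0.843%, 0.673%, 0.449% and 0.229% in control WT, control cKO, IR WT and IR cKO, so the order of the control genotypes turned. Without the clause on monocyte genes, also chosen after the data had been seen, the control difference of cKO minus WT was -0.558 points (-1.10 to -0.00148) and the IR difference -0.512 points (-0.857 to -0.169), and both intervals left out 0.

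Monocyte classes did not all move the same way. Classical monocyte-like cells made up 20.2%, 20.0%, 20.1% and 22.0% of barcodes in the same order of groups. The IR minus control difference of the classical class was -0.0705 points in WT (-1.64 to 1.50) and 1.97 points in cKO (0.181 to 3.76). Nonclassical monocyte-like cells made up 3.14%, 5.98%, 2.10% and 1.24%, and their IR minus control difference was -1.03 points in WT and -4.73 points in cKO. The nonclassical class was thus also smaller in the IR library. Taken over barcodes outside the neutrophil class, the chosen cells were 2.34%, 2.65%, 1.31% and 0.677%, in the same direction.

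**Figure D3:**
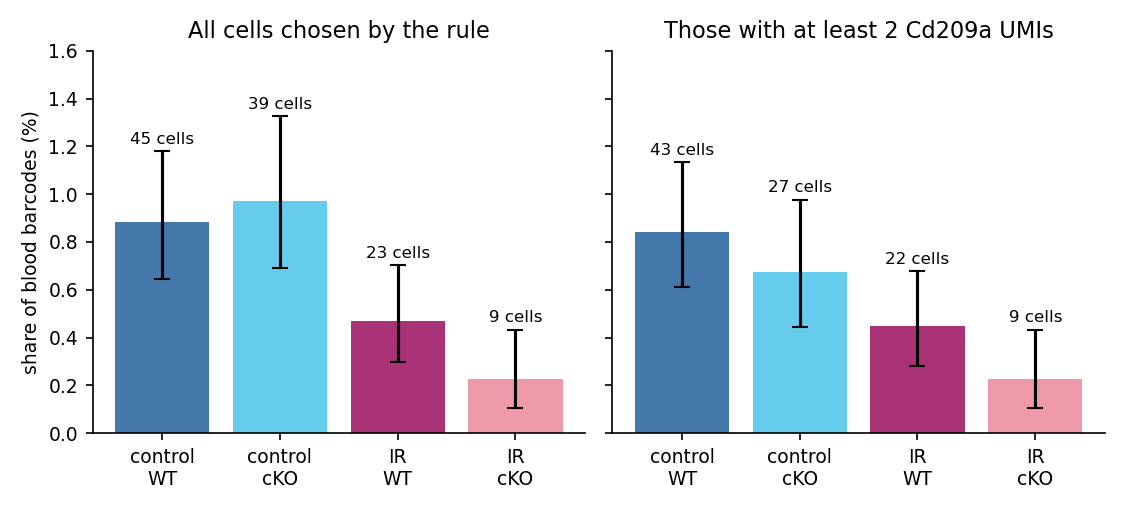
Share of blood barcodes (y axis, %) in the 4 groups, for all chosen cells (left) and for those with at least 2 Cd209a UMIs and more Cd209a than Siglech (right). Bars start at 0, lines are 95% Clopper-Pearson intervals, and numbers of cells stand above them. Both IR groups (0.469% and 0.229%) are below both control groups (0.882% and 0.972%) in the left panel.

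Genes of class II presentation were higher in the chosen cells than in classical monocyte-like cells. Of 10763 genes measured, 530 (4.92%) were higher and 1044 (9.7%) lower by at least 1 on the log2 scale, with a median over all genes of -0.06. Of the 12 class II genes, 10 were higher past that limit and 0 lower, with a median log2 difference of 2.74. H2-Eb1 stood at 2111 CPM against 164 (log2 3.68, 3.62 to 3.74), H2-Aa at 4149 against 379, H2-Ab1 at 3261 against 327 and Cd74, the invariant chain, at 12004 against 1557 CPM. Ciita stood at 154 against 26.4 CPM (log2 2.54, 2.33 to 2.75). The exchanger genes H2-DMa, at 839 against 329 CPM, and H2-DMb1, at 698 against 131 CPM, were also higher.

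Within the class II list, the lysosomal enzymes behaved otherwise. Ctss, the protease that trims the invariant chain, had a log2 difference of -0.53, and Ifi30, a lysosomal thiol reductase, one of 0.58. Class I presentation did not differ past the limit in any of its 8 genes, at a median of -0.08. H2-Aa was higher than in classical monocyte-like cells in each of the 4 groups, at log2 differences from 2.69 to 4.33.

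Genes of conventional type 2 dendritic cells were higher in part. Among the 10 measured genes of that list outside the rule, 5 were higher past the limit, beside 4.92% of all genes. Of the 10, 0 were lower past it, and the median was 0.84. Zbtb46 stood at 24.4 CPM against 0.780 (log2 4.89, 4.26 to 5.68), Clec10a had a log2 difference of 2.74, Itgax, which encodes CD11c, one of 2.31, and Irf4, a transcription factor needed by type 2 cells, one of 1.44. Sirpa, a receptor used to mark type 2 cells, was at -0.72 and Klf4 at -0.20, and monocytes express both. Of the 4 measured type 1 genes, 1 was above 0 and higher past the limit and 1 was lower past it, at a median of -0.21. The higher one, Batf3, had a log2 difference of 1.20 and Clec9a stood at 16.3 CPM against 0.412, but Xcr1 and Cadm1 had 1 UMI each in the 121 cells. Mature dendritic cell genes summed to 6.78 CPM, and Ccr7, the receptor that guides them to lymph nodes, had 3 UMIs.

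The gene furthest from the other blood cells was Cd7. Among genes outside the rule with at least 200 UMIs and the same direction in all 4 groups, the highest log2 differences from all other blood barcodes were those of Cd7 (5.57), H2-Eb1 (4.09), H2-Aa (3.90), H2-Ab1 (3.79), Clec10a (3.71) and Slamf7 (3.49). Cd7 stood at 308 CPM against 6.37 in classical and 0.176 in nonclassical monocyte-like cells, with a UMI in 54.5% of the chosen cells and in 2.41% of classical ones. Slamf7, a receptor of the signaling lymphocyte activation family, stood at 149 against 20.2 CPM in classical cells. Bcl11a, a transcription factor of lymphoid and plasmacytoid development, stood at 155 against 35.3 CPM.

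Klrd1, which encodes the CD94 chain of natural killer (NK) cell receptors, was also higher, at 123 CPM against 17.0 (log2 2.85, 2.61 to 3.09). Of the other 6 genes of the NK cell list, 4 had 0 UMIs and the rest at most 3 in the chosen cells. Klrd1 had a UMI in 51.2% of the chosen cells, and its level ranged from 75.6 CPM in control cKO to 174 CPM in control WT. Ccnd1 stood at 115 against 4.44 CPM in classical cells, with a UMI in 39.7% and 2.10% of the cells. Mrc1, a mannose receptor known from macrophages and some dendritic cells, stood at 54.3 against 5.20 CPM, with a UMI in 22.3% of the chosen cells.

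Monocyte programs were lower, which the gates set in part. The classical class had to hold at least 10 UMIs of the 4 monocyte genes, whereas 55 of the 121 chosen cells were admitted with fewer. Lower levels of genes expressed along with these 4 thus partly describe the choice. All 4 classical monocyte genes outside the rule were lower past the limit, from Chil3, a chitinase-like protein, at 32.6 against 1091 CPM (log2 -5.07, -5.51 to -4.66) to Fn1 at 434 against 1266 CPM. Of the 8 nonclassical genes, 7 were lower, including Ace, angiotensin-converting enzyme, at 12.2 against 110 CPM. In 3 of 14 interferon response genes and 5 of 10 Toll-like and nucleic acid sensing genes the chosen cells were lower past the limit, beside 9.7% of all genes. Tlr2, a receptor for bacterial lipoproteins, stood at 32.6 against 75.7 CPM. Its log2 difference ran from -1.52 to -1.23 over the 4 groups.

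The targeted gene went against the label. Ythdf2, which encodes the reader of N6-methyladenosine that is deleted in the cKO, stood at 35.7 CPM in cells labelled control WT (18 UMIs in 16 of 45 cells) and at 322 CPM in cells labelled control cKO (145 UMIs in 33 of 39 cells). After IR it stood at 31.9 CPM in cells labelled WT (10 UMIs) and at 130 CPM in those labelled cKO (16 UMIs). The log2 difference of cKO against WT was 3.10 (2.46 to 3.97) in control and 1.88 (0.80 to 3.33) in IR blood. The sequenced tags come from the 3′ end of the transcript, and where they lie outside the deleted part they check nothing about the deletion. WT and cKO are used here as the hashtags label the cells, and an exchange of the hashtags would turn every genotype direction. Ythdf2 alone does not tell whether they were exchanged, and the Lyz2 values, given next, went with the label. In classical monocyte-like cells the Ythdf2 difference of cKO against WT was 3.19 in control and 3.27 in IR blood.

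Lyz2, the locus that carries Cre, followed the label. It stood at 6176 CPM in control WT, 62.2 in control cKO, 4229 in IR WT and 40.5 in IR cKO, a log2 difference of -6.59 (-7.23 to -6.10) in control and -6.55 (-8.33 to -5.48) in IR blood. Lyz2 had a UMI in all 45 control WT and all 23 IR WT cells, at medians of 19 and 26 per cell. It had a UMI in 19 of 39 control cKO cells, at no more than 4 per cell, and in 4 of 9 IR cKO cells. Every WT cell thus held the transcript, and the cKO cells held few or none. Lyz1, the neighboring paralog that shares sequence with Lyz2, had 1, 8, 1 and 0 UMIs in the same order, and reads of the pair may be divided between them by the counting.

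**Figure D4:**
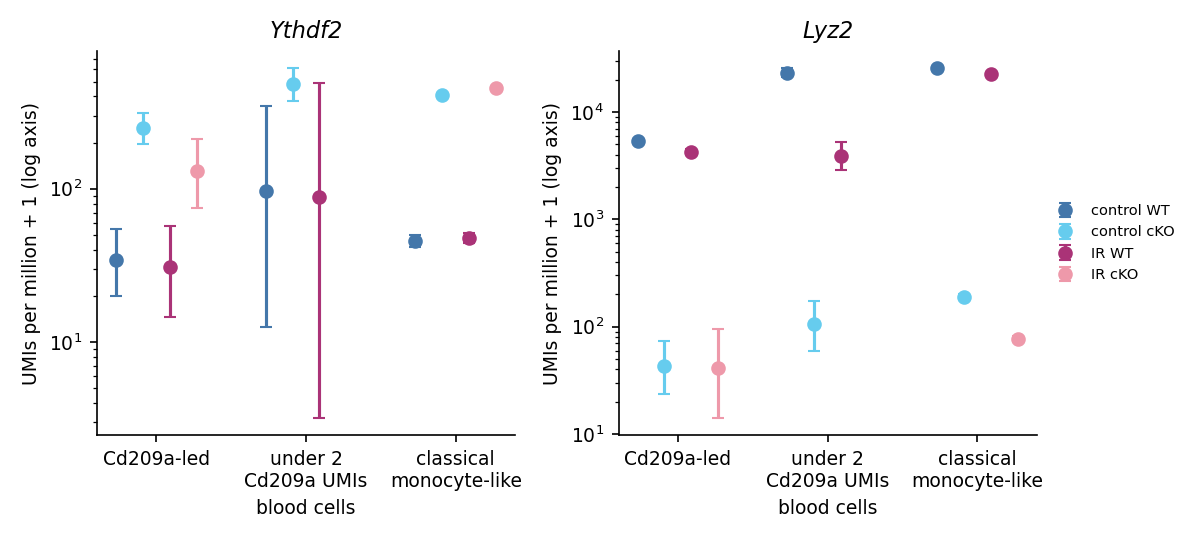
Ythdf2 (left) and Lyz2 (right) in summed Cd209a-led cells, the chosen cells under 2 Cd209a UMIs and classical monocyte-like cells, by group. The y axis is CPM plus 1 on a log scale, lines are 95% exact Poisson intervals, and the IR cKO group has no cell in the middle class. In Cd209a-led and classical cells Ythdf2 is higher, and Lyz2 lower, in both cKO groups.

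Few genes differed between IR and control WT cells. Of 2276 genes measured, 15 (0.659%) were higher and 18 (0.791%) lower by at least 1 on the log2 scale in the IR library, and in the Cd209a-led cells 14 of 2180 (0.642%) were higher and 18 (0.826%) lower. Isg15, an interferon-induced ubiquitin-like protein, was the single gene higher past the limit in both genotypes. It stood at 73.4 CPM in control WT and 185 CPM in IR WT (log2 1.30, 0.71 to 1.97), in 18 of 45 and 13 of 23 cells. In cKO it stood at 113 CPM in control and 251 CPM in IR (log2 1.12, 0.45 to 1.82), but 16 of the 31 IR UMIs lay in 1 cell and the log2 difference without that cell was 0.34. Isg15 was also the only one of the 5 interferon response genes measured that was past the limit, in WT and in cKO. With Isg15 included, 2 of 5 were above 0 in WT, at a median of -0.02, and 4 of 5 in cKO, at a median of 0.34.

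Several of the higher genes in IR WT rested on single cells, so each difference was also taken without the cell that held most UMIs of the gene in the higher group. Il1b, which encodes interleukin-1 beta, stood at 184 CPM in control and 526 CPM in IR WT, but 84 of 165 IR UMIs lay in 1 cell. Without the highest cell the log2 difference was 0.58 in place of 1.5. Slpi, a protease inhibitor of neutrophils and monocytes, had 36 of 53 IR WT UMIs in 1 cell, and its difference went from 1.51 to 0.01 without it. Cxcl2, a neutrophil-attracting chemokine, had 27 of 46 UMIs in 1 cell and went from 1.89 to 0.71. Tcf4, the E protein that drives plasmacytoid development, had 15 of 51 UMIs in 1 cell and went from 1.32 to 0.93. Anapc13, a subunit of the anaphase-promoting complex, was spread over 18 of 23 IR WT cells at no more than 5 UMIs each, and its difference was 1.21 (0.56 to 1.94).

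Among the genes lower in IR WT, Rgs1, Mt1, Dusp2, Ddit4 and Sik1 stayed past the limit without their highest cell. Rgs1, a regulator of G protein signaling, had 51 UMIs in 15 of 45 control WT cells and 1 UMI in 23 IR WT cells (log2 -4.20, -10.3 to -2.45). The highest control cell held 11 of these UMIs, and the difference without it was -3.88. Mt1, a metal-binding metallothionein, had 72 UMIs in 15 control WT cells and 10 UMIs in 8 IR WT cells, and Ddit4, a stress-induced inhibitor of mTOR signaling, had 100 UMIs in 26 cells and 21 UMIs in 11 cells. Dusp2, a phosphatase induced by activation, had 53 and 7 UMIs, and Sik1, a cAMP-induced kinase, 58 and 12 UMIs. Apoe was an exception, with 55 of 62 control WT UMIs in 1 cell, and its log2 difference turned from -2.34 to 0.55 without that cell.

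Every measured gene of the immediate-early and stress list lay below 0 in the IR library in both genotypes, though most in WT did not pass the limit. These genes, such as Fos, Egr1 and Dusp1, are transcribed within minutes of a stimulus, including the handling of cells, and the part of handling in these values was not tested. In WT, 10 of 10 measured genes of the list were below 0 and 2 lower past the limit, beside 0.791% of all genes, at a median of -0.53 beside 0.04 over all genes measured. Egr1, a zinc-finger transcription factor, had 236 UMIs in 29 of 45 control WT cells and 50 UMIs in 11 of 23 IR WT cells (log2 -1.54, -2.02 to -1.11). In cKO, 10 of 10 were below 0 and 5 lower past the limit, beside 6.28% of all genes, at a median of -1.06 beside -0.07 over all genes. Fos stood at 1902 and 810 CPM (log2 -1.23, -1.55 to -0.93) and Dusp1, a phosphatase that switches off MAP kinases, at 900 and 227 CPM (log2 -1.97, -2.60 to -1.43). In Cd209a-led cells the cKO median was -0.78, with 9 of 9 measured genes below 0.

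In cKO cells, more genes were lower than higher in the IR library. Of 1655 genes measured, 16 (0.967%) were higher and 104 (6.28%) lower in IR cKO. IR cKO held 123487 UMIs against 450031 in control cKO, and genes entered on their UMIs over the pair. At such unequal depth, counting error takes a gene past the limit more easily as lower than as higher. The part of this in the counts was not tested. When only Cd209a-led cells were compared, 6 of 1225 (0.490%) were higher and 39 (3.18%) lower, with fewer control cKO UMIs (306823 in place of 450031) and therefore fewer genes measured. All 3 classical monocyte genes measured outside the rule were lower past the limit, with Hp at 480 CPM in control and 32.4 in IR cKO, and Mgst1 at 216 and 8.10 CPM. Gda, guanine deaminase, had 69 UMIs in control cKO and 0 in the 9 IR cells, and Cd93, a surface glycoprotein of myeloid cells, 52 and 0. Hp stood at 152 CPM in all Cd209a-led cells and at 745 CPM in the 16 others, of which control cKO held 12 and IR cKO 0.

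Of 9 class II genes measured, 2 were higher past the limit in IR cKO than in control cKO, beside 0.967% of all genes. Over all chosen cells 8 of 9 were above 0, at a median of 0.65 beside -0.07 over all genes, with H2-Eb1 at 3199 against 1500 CPM and Cd74 at 18261 against 9033 CPM. In the Cd209a-led cells 8 of 9 were again above 0 but 0 were past the limit, at a median of 0.36. The highest single cell held 592 of the 2255 Cd74 UMIs of IR cKO, and the difference without the highest cell was 0.83. In WT the class II median was -0.03, with 4 of 9 genes above 0 and 0 past the limit.

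Other genes were also higher in IR cKO. Cdkn1a, the p53 target that encodes the cell cycle inhibitor p21, had 29 UMIs in 4 of the 9 IR cKO cells, at 235 CPM against 64.4 in control cKO (log2 1.81, 1.07 to 2.66), and 1.27 without the highest cell. In WT its difference was -0.06. Slamf7 was found in all 9 IR cKO cells, at 283 against 109 CPM (log2 1.35), and in the Cd209a-led cells its difference was 0.90. Sp110, a nuclear body protein induced by interferon, stood at 251 against 107 CPM in all 9 cells, and its difference was 1.21, with 1.19 in the Cd209a-led cells. Tmed3, a cargo receptor of the secretory pathway, stood at 219 against 93.3 CPM and Mrps15, of the mitochondrial ribosome, at 186 against 77.8 CPM.

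Between genotypes, classical monocyte genes were higher in control cKO cells. Of 2688 genes measured in control blood, 59 (2.19%) were higher and 16 (0.595%) lower in cKO, and in the Cd209a-led cells 17 of 2208 (0.770%) were higher and 15 (0.679%) lower. All 3 classical monocyte genes measured outside the rule were higher past the limit, at a median of 2.08, and 2 of 3 were in the Cd209a-led cells, at 1.38. Pla2g7, a phospholipase of activated macrophages, had 3 UMIs in WT and 47 in 16 cKO cells, and Clec4e, a lectin receptor for mycobacterial lipid, 4 and 48 UMIs. Of the monocyte-rich chosen cells under 2 Cd209a UMIs, 12 were control cKO and 2 control WT. The part of this uneven mix in the values over all chosen cells was not tested. Gsr, glutathione reductase, stood at 85.2 against 460 CPM (log2 2.40, 1.95 to 2.94), was found in 35 of 39 cKO cells, and kept a difference of 1.76 in the Cd209a-led cells.

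Genes lower in control cKO were fewer and included Rgs1, Mt1 and Ddit4. Rgs1 had 2 UMIs in 1 control cKO cell against 51 in WT (log2 -3.98, -7.59 to -2.58), Mt1 had 10 against 72 UMIs (log2 -2.57, -3.80 to -1.72) and Ddit4 30 against 100 UMIs. These comparisons share the control WT cells with the WT comparison of IR and control, so they are not separate evidence. Ms4a4b, a membrane protein known from T cells, had 50 UMIs in 21 WT cells and 12 in 8 cKO cells, and Upb1, an enzyme of pyrimidine breakdown listed with the plasmacytoid genes, 51 and 17 UMIs. No class II gene passed the limit in control cKO against WT, where 1 of 9 was above 0, at a median of -0.54 beside 0.05 over all genes, and of -0.18 in the Cd209a-led cells.

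In IR blood, 6 of 1259 genes (0.477%) were higher and 28 (2.22%) lower in cKO than in WT, and 6 of 1229 (0.488%) and 28 (2.28%) in the Cd209a-led cells. The cKO cells held 123487 UMIs against 313785 in WT. At such unequal depth counting error passes the limit more easily as lower than as higher, and its part in these counts was not tested. Trim30a, an interferon-induced regulator of innate signaling, stood at 259 CPM in 8 of 9 cKO cells and at 102 CPM in 14 of 23 WT cells (log2 1.31, 0.59 to 2.10). In the Cd209a-led cells its difference was 1.01 in control and 1.25 in IR. Among genes with at least 50 UMIs in each pair, it alone was higher past the limit in both genotype comparisons of these cells. Cdkn1a was at 1.21, and 0.68 without the highest cell, and Polr2e, Xrn2 and Ubxn4 were between 1.08 and 1.12, and at 0.98, 0.94 and 0.75 without the highest cell of each. Il1b had 6 UMIs in cKO against 165 in WT (log2 -3.32), and -2.40 without the highest cell. Spop, an adaptor of a ubiquitin ligase, had 6 against 60 UMIs (log2 -1.88, -3.48 to -0.77), and Spcs1, of the signal peptidase, 7 against 59 UMIs.

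**Figure D5:**
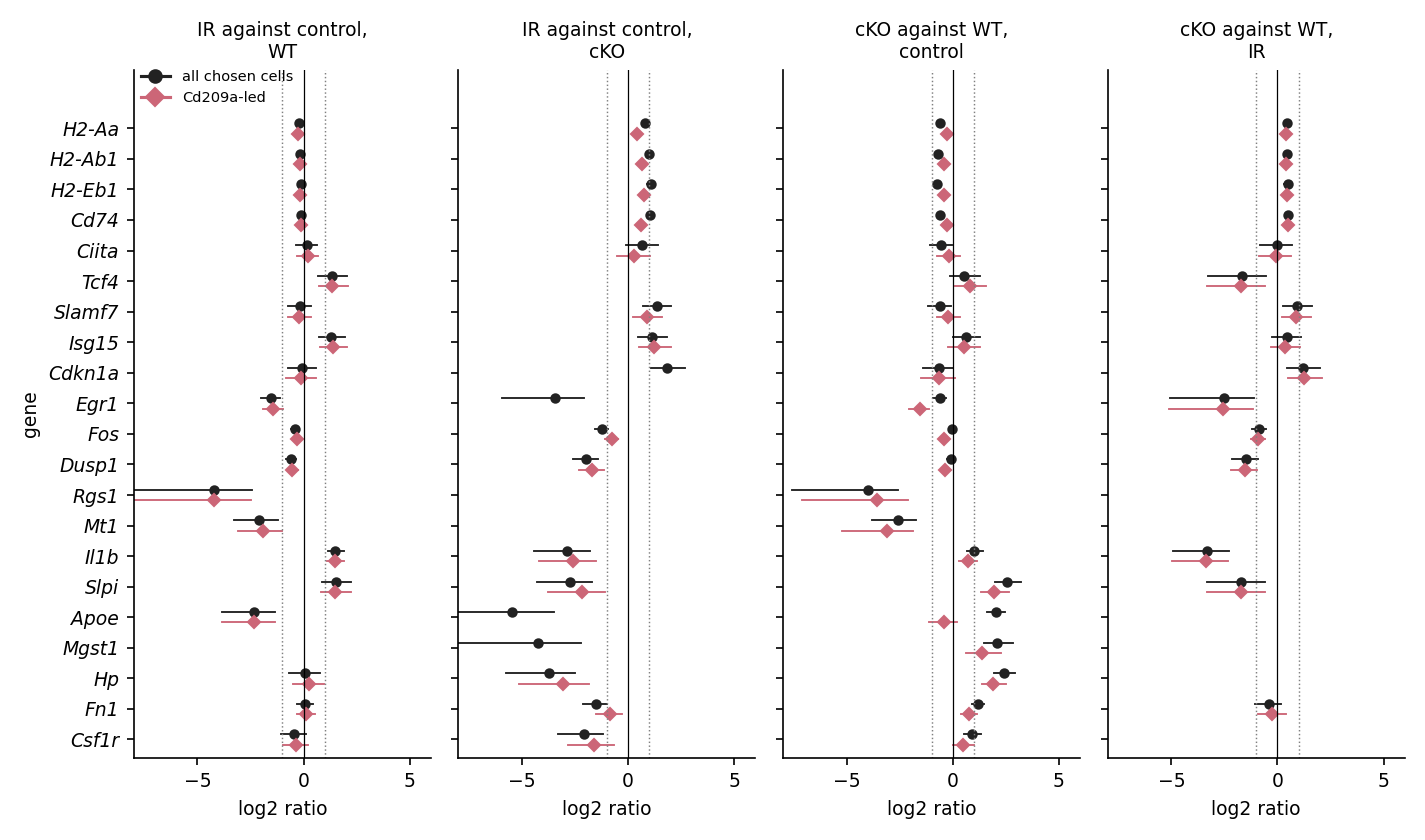
Log2 ratios (x axis) of 21 genes in the 4 comparisons, for all chosen cells (black circles) and Cd209a-led cells (red diamonds), with 95% intervals for counting error that are clipped at the axis limits. Dotted lines mark 1 and -1, and a gene with under 50 UMIs over the pair has no point. When only Cd209a-led cells are used, Hp and Mgst1 move toward 0 in cKO against WT of control blood. Hp, H2-Eb1 and Cd74 do so in IR against control of cKO. In IR against control of WT, the monocyte genes with a point move slightly away from 0.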

How the data were processed

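The authors deposited raw UMI counts per gene and barcode, with no normalization, for 4 droplet libraries of mRNA with hashtag counts in the same matrices. Per the labels and methods they used Cell Ranger 6.0.1 (the file headers name version 4), mm10 and GENCODE vM23, with Seurat 4.0.6 afterwards. The matrices had not been filtered for cells, so cells were chosen here: at least 500 gene UMIs, 200 genes, 20 hashtag UMIs and at most 25% mitochondrial UMIs. A cell was WT if B0301 was at least B0302, and cKO if B0302 was at least 4 times B0301. The 2 blood libraries held 51731085 and 51653956 gene UMIs.

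UMIs were summed per group and class. Log2 ratios of CPM added 1 UMI, scaled to depth, and were computed for genes with at least 50 UMIs over the pair (100 and 20 as alternatives), with exact binomial intervals. Ythdf2 in IR blood, under that minimum, was given as an exception. The 15 genes of the rule were left out of counts. No p-value was computed. The ratios and counts were tested on simulated group sums drawn as Poisson counts, without variation between cells. That test does not cover genes whose UMIs lie mostly in single cells. Python 3.11.15, NumPy 2.4.6, SciPy 1.17.1, pandas 2.3.3, Matplotlib 3.10.9 and scanpy 1.11.5 were used. Scrublet called 1 of 9622 and 1 of 9237 barcodes doublets, so it had not worked, and no doublets were removed.

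The text names the markers and genes of the rule, members of 26 gene lists, up to 15 leading genes, up to 8 genes per direction past the limit in both comparisons of a kind and up to 5 in one. Of these, those with too few UMIs are given by their UMIs or left out. The cells, lists and comparisons were chosen with earlier results of these data known.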

Additional observations from a re-analysis of the deposited data

Results flagged for a closer look

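For 5 genes a log2 difference of at least 1 in one comparison stood against one of at least 1 in the opposite direction in its counterpart, and the gap between the counterparts was not tested. For IR against control, WT and cKO cells stood at 1.078 and -3.838 in Csf3r, at 1.5 and -2.864 in Il1b and at 1.515 and -2.749 in Slpi. For cKO against WT, control and IR cells stood at 1.018 and -3.319 in Il1b, at 2.241 and -3.988 in S100a8, at 1.716 and -2.753 in S100a9 and at 2.549 and -1.706 in Slpi. All 5 are genes of neutrophils or inflammatory monocytes, and Csf3r, S100a8 and S100a9 were part of the rule. Single cells held much of these UMIs: 1 cell held 192 of 259 S100a8 UMIs in control WT, 148 of 223 in IR WT and 309 of 1096 in control cKO. Without the highest cell of the higher group, the IR against control difference in WT was -0.10 in Csf3r, 0.58 in Il1b and 0.01 in Slpi. The 9 IR cKO cells held 5 UMIs of S100a8 and 6 each of Il1b and Slpi, and all 6 of Slpi were in 1 cell.

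The same rule was also met by 184 barcodes of the tumor libraries, which were outside the comparisons above.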

How the results depend on the processing

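No paired analysis was possible because every combination of genotype and treatment was sampled once, so no replicate could be left out either. Of 270 alternative values of shares and gene counts, 208 stayed within their interval or within 1.5 times the reported count, as did 541 of 551 list medians (within 0.5) and 1488 of 1592 values of named genes. These tallies include settings that could hardly move them. The lowest chosen cell held 4429 UMIs, so a minimum of 1000 UMIs removed none. That minimum, a limit of 10% mitochondrial UMIs and a 4-fold hashtag margin for WT left the gene counts of all 4 comparisons unchanged. A set of Siglech-led cells gave no value, since no cell met it. Values for Cd209a-led cells alone (shares), without the monocyte clause, and without the 4 cells with T cell or haemoglobin UMIs, and all those of the comparison with classical cells, were chosen after seeing the data. Why the values below moved was not tested.

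Shares are in percent and in the order control WT, control cKO, IR WT. With the Flt3 clause dropped they were 0.412, 0.349 and 0.265, with the monocyte clause dropped 2.08, 1.52 and 0.918, and with cells thinned to 1000 UMIs 0.378, 0.176 and 0.103 (IR cKO 0.0511). Control cKO was 0.673 for Cd209a-led cells and 0.598 at 5 or more UMIs of Flt3, Cd209a and Siglech. The Cd209a-led percent was 100 in all 3 at 5 UMIs and with the Flt3 clause dropped, and 100 in thinned control cKO. IR minus control in points was -1.04 (WT) and -1.97 (cKO) over barcodes outside the neutrophil class and -1.16 and -1.11 without the monocyte clause. In cKO it was -0.369 at 5 UMIs, -0.222 without the Flt3 clause and -0.125 (-0.316 to 0.0377) thinned. The WT interval included 0 at 5 UMIs (-0.563 to 0.0390), without the Flt3 clause (-0.390 to 0.0895) and with no B cell UMI allowed (-0.558 to 0.0329). The cKO minus WT difference was -0.558 (control) and -0.512 (IR, -0.857 to -0.169) without the monocyte clause, and -0.630 (IR) outside the neutrophil class. In control it also lay below 0 in Cd209a-led cells (-0.17), at 5 UMIs (-0.0882), without the Flt3 clause (-0.0629), thinned (-0.202) and without the highest Scrublet scores (-0.000622), each with an interval that included 0.

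Counts of genes higher and lower follow in the order IR against control in WT and in cKO, then cKO against WT in control and in IR. With a minimum of 20 UMIs they were 111 and 115, 91 and 431, 238 and 119, and 78 and 225. With 100 UMIs they were 2 and 5, 3 and 36, 29 and 3, and 0 and 6. Without the Flt3 clause, 8 were lower in the first, 1 and 21 were higher and lower in the second, 12 higher in the third, and 2 and 15 in the fourth. In Cd209a-led cells the second gave 6 and 39 and the third 17 higher, and at 5 UMIs 6 and 36, and 15 higher. The first gave 9 higher with median-of-ratios scaling and 33 lower without the monocyte clause. Against classical cells, 805 and 352 genes were higher at minimums of 20 and 100 UMIs, and 1832 lower without the Flt3 clause.

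Among named genes, 4 values turned direction: Lyz2 in IR against control WT was 1.10 and Cd7 in cKO -0.041 without the Flt3 clause, and Apoe in cKO against WT control was -0.43 in Cd209a-led cells and -0.58 at 5 UMIs. With 9 IR cKO cells, genes under 50 UMIs over a pair were not compared, apart from Ythdf2.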
